A study of Mus musculus with 16 samples.

Results

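The 8 genes described here belong to the mast cell program: the granule proteases Cma1 and Cpa3, the receptor genes Kit, Fcer1a and Ms4a2, the transcription factor Gata2, the histamine-forming enzyme Hdc and the proteoglycan Srgn. They were taken by symbol from 23279 gene symbols, and all 8 were present. Cma1 and Cpa3 were chosen for their values in these libraries, so their differences are given as a description with no test. The other 6 were chosen as known mast cell genes and were tested. Values are FPKM, read fragments scaled by transcript length and library size, from polyA RNA of 16 mouse pre-B cell libraries.

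The libraries formed 4 groups of 4, which crossed BCR-ABL1, the leukaemic fusion kinase, with SHP2, the phosphatase encoded by Ptpn11. The labels write the groups as BCR-ABL NULL (-/-) or BCR-ABL WT (+/+), each with SHP2 WT (+/+) or SHP2 NULL (-/-), and the former pair are called libraries without BCR-ABL1 and the latter libraries with BCR-ABL1 below. The sources used here do not give strain, age, how SHP2 was removed, how BCR-ABL1 was introduced or whether a group came from 1 culture or several. The p-values therefore rest on the spread among these libraries, part of which may be technical. Ptpn11 in null libraries averaged 34.5% of the wild-type level without BCR-ABL1 and 26.6% with it (4 against 4 libraries each, exact two-sided permutation p = 0.0286 in both, the smallest that this design allows). Summed FPKM ran from 348923 to 443702. No counts were in the tables and depth is unknown, although the low values put the deepest library at 1.59 times the shallowest. None of 10 everyday genes was listed at 0 in any library.

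Mast cells are tissue cells that store proteases, histamine and heparin in granules and release them when IgE bound to the receptor FceRI is crosslinked. CMA1 is a chymase and CPA3 a carboxypeptidase, both held in the granule on serglycin, the product of Srgn. FCER1A and MS4A2 are the alpha and beta chains of FceRI, KIT is the receptor for stem cell factor, which mast cells need to survive, and GATA2 is a transcription factor of mast cells, basophils and early progenitors. Kit and Srgn are also used widely outside mast cells, Kit by progenitors and Srgn by most blood cells. In the libraries here the pre-B markers were high throughout: the sum of 13 of them, which include Cd79a, Vpreb1 and Igll1, ran from 2071 to 2779 FPKM. By contrast, the summed level of 12 mast cell proteases reached at most 13.7 FPKM, in a wild-type library without BCR-ABL1.

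The 250 bases before the transcription start are shown for the proteases and the IgE receptor chains. These 4 genes had related levels across libraries, and GATA factors are known regulators of mast cell genes. They are also the members whose windows held GATAA on either strand. Gata2 had related levels too (Pearson r = 0.77 with Cma1 and 0.84 with Cpa3 across the 16 libraries), and its windows held none. The letters are from RefSeq on GRCm38.p6, the build named for these files, are written 5′ to 3′ on the strand of the gene and end at the base before the start. Capitals mark GATAA or, on the other strand, TTATC.

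Cma1 (chr14:55944676-55944925, minus strand): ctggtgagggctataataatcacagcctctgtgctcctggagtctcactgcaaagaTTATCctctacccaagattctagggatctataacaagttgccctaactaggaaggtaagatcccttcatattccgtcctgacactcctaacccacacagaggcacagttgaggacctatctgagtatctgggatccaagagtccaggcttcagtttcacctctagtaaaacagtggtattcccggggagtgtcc
Cpa3 (chr3:20242182-20242431, minus strand): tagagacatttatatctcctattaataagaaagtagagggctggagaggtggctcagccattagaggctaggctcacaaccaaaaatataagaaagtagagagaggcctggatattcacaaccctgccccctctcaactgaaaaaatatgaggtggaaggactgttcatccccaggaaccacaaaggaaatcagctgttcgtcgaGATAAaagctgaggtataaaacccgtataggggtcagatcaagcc
Fcer1a (chr1:173227230-173227479, minus strand): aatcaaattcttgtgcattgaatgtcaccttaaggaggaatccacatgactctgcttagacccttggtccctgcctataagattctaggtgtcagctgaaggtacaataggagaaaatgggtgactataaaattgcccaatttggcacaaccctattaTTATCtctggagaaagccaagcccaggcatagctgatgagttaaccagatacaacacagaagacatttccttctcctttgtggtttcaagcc
Ms4a2 (chr19:11623720-11623969, minus strand): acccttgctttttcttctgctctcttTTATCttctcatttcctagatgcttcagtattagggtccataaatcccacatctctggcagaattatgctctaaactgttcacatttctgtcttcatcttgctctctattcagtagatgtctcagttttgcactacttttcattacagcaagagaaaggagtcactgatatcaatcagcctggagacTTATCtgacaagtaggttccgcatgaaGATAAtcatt

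The Cma1 window held 1 match, from 194 to 190 bases before the start, and the Cpa3 window held 1, from 45 to 41 bases before it. Fcer1a had 1 match at 92 to 88 bases, in a window set by a RefSeq start that lies upstream of the GENCODE start. Ms4a2 had 3 matches, at 224 to 220, 37 to 33 and 10 to 6 bases before the start. None was found in the windows of Kit, Gata2, Hdc and Srgn. A match on either strand was present in 23% of 27025 RefSeq windows of the same length, so these matches are a description of the sequence and not evidence of a binding site. The other motif searched, CACATG on either strand, was present in 12.2% of all windows and in 1 window of the members, that of Fcer1a.

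Cma1 (chr14:55941451-55944675, minus strand, 5 exons, GRCm38) was detected in all libraries without BCR-ABL1 and in none with it. In wild-type cells without BCR-ABL1 it measured 2.10, 3.98, 3.29 and 2.52 FPKM in replicates 0 to 3. In null cells without BCR-ABL1 the values were 0.594, 0.0204, 1.75 and 0.246 FPKM. Cma1 was listed at 0 in all 8 libraries with BCR-ABL1. All 4 null libraries thus lay below all 4 wild-type libraries when BCR-ABL1 was absent, and the null library of replicate 2 came nearest to the wild type. The group means were 2.97 ± 0.83 and 0.652 ± 0.768 FPKM (SD, n = 4), a log2 difference of -1.35 ± 0.22 (SE). Log2 differences are between group means of log2(FPKM + 1), a scale that understates changes of low genes. No fold is given against the libraries at 0, and on this scale the difference made by BCR-ABL1 was -1.97 ± 0.22 in wild-type cells and -0.62 ± 0.22 in null cells. Without the null library of replicate 2 the last value was -0.34.

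Cpa3 (chr3:20215620-20242181, minus strand, 11 exons) had a similar profile but kept a low level in most libraries with BCR-ABL1. Wild-type cells without BCR-ABL1 gave 3.90, 6.76, 7.54 and 4.16 FPKM in replicates 0 to 3, and null cells without BCR-ABL1 gave 0.896, 0, 4.96 and 2.34 FPKM. With BCR-ABL1 the wild-type values were 0.0401, 0.0781, 0.672 and 1.39 FPKM, whereas the null ones were 0.140, 0, 0.304 and 0.510 FPKM. The wild-type libraries without BCR-ABL1 stood above every library with BCR-ABL1, whereas the null libraries without BCR-ABL1 overlapped with their wild-type counterparts through replicate 2. Group means ran in the order 5.59 ± 1.83, 2.05 ± 2.17, 0.546 ± 0.634 and 0.239 ± 0.219 FPKM (SD, n = 4), and each neighbouring pair in this order overlapped. The log2 difference was -1.37 ± 0.42 for SHP2 loss without BCR-ABL1, -0.25 ± 0.42 for SHP2 loss with it, -2.14 ± 0.42 for BCR-ABL1 in wild-type cells and -1.02 ± 0.42 for BCR-ABL1 in null cells. The last became -0.60 without the null library of replicate 2. In these bulk samples fewer cells of a type and less RNA per cell cannot be told apart.

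The ratio of Cma1 to Cpa3 differed between the conditions. In wild-type cells without BCR-ABL1 it was 0.540, 0.588, 0.436 and 0.606 in replicates 0 to 3, a narrow range. The null libraries without BCR-ABL1 gave 0.663, 0.353 and 0.106 in replicates 0, 2 and 3, with no ratio in replicate 1, where Cpa3 was at 0. In the libraries with BCR-ABL1 that had Cpa3, the ratio was 0 throughout. The highest of them, the wild-type library of replicate 3, had more Cpa3 (1.39 FPKM) than the null library of replicate 0 without BCR-ABL1 (0.896 FPKM), which had 0.594 FPKM of Cma1.

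**Figure D1:**
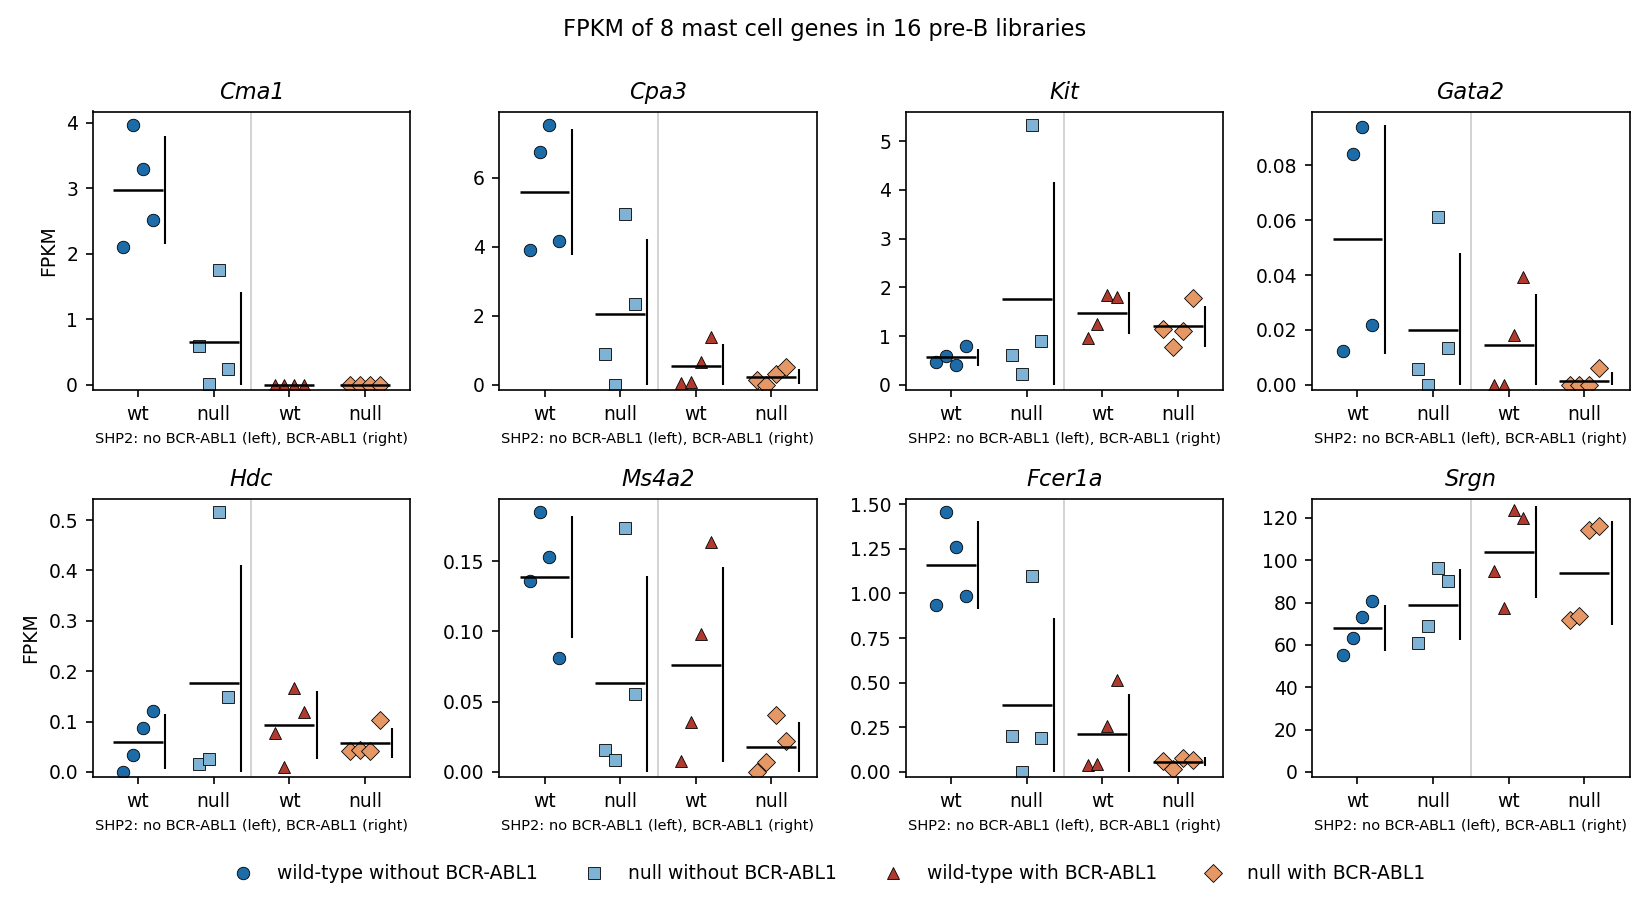
FPKM of the 8 genes (vertical axes, linear, 1 scale per gene) in the 16 libraries, by SHP2 status and BCR-ABL1. Each symbol is a library, horizontal lines are group means and vertical lines the SD, stopped at 0; Cma1 lies at 0 in all libraries with BCR-ABL1, while Srgn lies between 55.4 and 124 FPKM in all 16.

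Among the receptor genes, Fcer1a (chr1:173221284-173227214, minus strand) came closest to Cpa3. Its values in wild-type cells without BCR-ABL1 were 0.935, 1.46, 1.26 and 0.986 FPKM, and in null cells without it 0.203, 0, 1.10 and 0.190 FPKM. With BCR-ABL1 it measured 0.0401, 0.0466, 0.256 and 0.513 FPKM in wild-type cells. In null cells with BCR-ABL1 the values were 0.0628, 0.0186, 0.08 and 0.0651 FPKM. Every wild-type library without BCR-ABL1 was above every wild-type library with it. Fcer1a fell by 0.84 ± 0.19 (SE) on the log2 scale with BCR-ABL1 in wild-type cells (adjusted p = 0.0267). Of the 4 members below the expression filter, which is at least 1 FPKM in at least 4 libraries, it alone passed the test there, where 3.12% of 18172 genes did. That call ended with a pseudocount of 0.1 (adjusted p = 0.0596) and without the wild-type replicates 1 (0.0685) or 2 (0.08) without BCR-ABL1 or replicates 0 (0.0868), 1 (0.0691) or 2 (0.0583) with it. For SHP2 loss without BCR-ABL1 the difference was -0.71 ± 0.19 and missed the threshold (adjusted p = 0.106). Leaving out the null library of replicate 2 made it -0.93 with an adjusted p of 0.00307. Against Cpa3 in the same library, Fcer1a was 0.167 to 0.24 in wild-type cells without BCR-ABL1 and 0.369 to 1 in wild-type cells with it. The ratios of 1 and 0.597 came from wild-type libraries with only 0.0401 and 0.0781 FPKM of Cpa3. In null cells the ratios in replicates 0, 2 and 3 were 0.226, 0.222 and 0.0812 without BCR-ABL1. With it they were 0.448, 0.263 and 0.128, so the null groups overlapped.

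Ms4a2 (chr19:11615523-11623719, minus strand) stayed below 0.2 FPKM, so its values are near the lower end of what the files list. Wild-type cells without BCR-ABL1 gave 0.136, 0.185, 0.153 and 0.0812 FPKM, and null cells without it 0.0155, 0.00820, 0.173 and 0.0554 FPKM. With BCR-ABL1 the values were 0.00758, 0.0356, 0.0979 and 0.164 FPKM where SHP2 was present and 0, 0.00711, 0.0408 and 0.0218 FPKM where it was not. The groups overlapped in all 4 comparisons, and the log2 differences lay between -0.10 and -0.06 with adjusted p-values from 0.425 to 1. The 2 libraries with the most Cpa3 within wild-type cells with BCR-ABL1, replicates 2 and 3, also had the most Ms4a2 and Fcer1a.

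Kit (chr5:75574916-75656722, plus strand) did not share the profile of the proteases. It measured 0.460, 0.595, 0.415 and 0.803 FPKM in wild-type cells without BCR-ABL1, the group in which Cma1 and Cpa3 were highest and Kit had its lowest mean. Null cells without BCR-ABL1 gave 0.606, 0.226, 5.34 and 0.891 FPKM. With BCR-ABL1, Kit was at 0.968, 1.24, 1.85 and 1.81 FPKM where SHP2 was present and at 1.16, 0.781, 1.10 and 1.78 FPKM where it was not. All 4 wild-type libraries with BCR-ABL1 lay above all 4 without it, opposite in direction to Cma1, Cpa3 and Fcer1a. The log2 difference of 0.64 ± 0.36 nevertheless missed the threshold (adjusted p = 0.354). A fit on the 8 wild-type libraries alone gave an adjusted p of 0.0367. In SHP2 loss without BCR-ABL1 the difference of 0.50 ± 0.36 (adjusted p = 0.522) rested on the null library of replicate 2 and was -0.01 without it.

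Gata2 (chr6:88193891-88207032, plus strand) was listed below 0.1 FPKM everywhere. It reached 0.0125, 0.0840, 0.0938 and 0.0218 FPKM in wild-type cells without BCR-ABL1 and 0.00569, 0, 0.0613 and 0.0133 FPKM in null cells without it. With BCR-ABL1 it was above 0 in 2 wild-type libraries, replicate 2 at 0.0180 FPKM and replicate 3 at 0.0394 FPKM, and in 1 null library, replicate 3 at 0.00613 FPKM. Its mean thus had the same order of groups as Cpa3, and every neighbouring pair overlapped. Adjusted p-values ran from 0.325 to 1 over the 4 comparisons.

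Hdc (chr2:126593667-126619299, minus strand) had its highest value, 0.517 FPKM, in the null library of replicate 2 without BCR-ABL1. Elsewhere it ran from 0 to 0.167 FPKM, and wild-type cells without BCR-ABL1, with 0, 0.0334, 0.0869 and 0.121 FPKM, were not the highest group. The groups overlapped in every comparison, with adjusted p-values from 0.612 to 1. Srgn (chr10:62493833-62527451, minus strand) was the most abundant of the 8 by far, with means of 68.1, 79.1, 104 and 94.1 FPKM in wild-type and null cells without and then with BCR-ABL1. Its lowest group was again the one with the most Cma1. In wild-type cells it was at 55.4, 63.3, 73.0 and 80.6 FPKM without BCR-ABL1 and at 94.8, 77.3, 124 and 120 FPKM with it, groups that overlapped only through replicate 1. The difference made by BCR-ABL1 in wild-type cells was 0.59 ± 0.20 and missed the threshold (adjusted p = 0.112). Srgn was higher with BCR-ABL1 at each replicate number, and with the replicate number as a block the adjusted p was 0.000722. The numbers were not taken to pair libraries in that comparison.

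Counted over the 6 tested genes, limma called 1 gene, Fcer1a, in 1 comparison. For BCR-ABL1 in wild-type cells 2 genes had an unadjusted p below 0.05, Fcer1a and Srgn, beside 15.6% of genes without the filter and 19.1% past it. Neither Kit nor Srgn was called where 4.67% of 10210 genes past the filter were. Groups did not overlap for 4 of the 8 members there, against 9.75% of 18172 genes. Cma1, Cpa3 and Fcer1a were lower without overlap (3.95% of genes) and Kit was higher (5.79%). In SHP2 loss without BCR-ABL1 no tested member was called, against 1.54% of genes past the filter and 1.03% without it, and 1 (Fcer1a) had an unadjusted p below 0.05, beside 12.9% of genes without the filter. Only Cma1 of the 8 did not overlap there, against 6.88% of genes in either direction and 2.39% lower. BCR-ABL1 in null cells gave no call among the 6 tested genes, with backgrounds of 1.26% past the filter and 0.765% without it. None had an unadjusted p below 0.05, beside 13.5% of genes past the filter and 11.6% without it. Again only Cma1 did not overlap, against 6.02% in either direction and 2.82% lower. SHP2 loss with BCR-ABL1 likewise gave no call, with backgrounds of 0.313% past the filter and 0.193% without it. No unadjusted p was below 0.05, beside 3.65% of genes past the filter and 4.31% without it. All 8 genes overlapped or were at 0 in both groups, where 2.87% of genes did not overlap. On the interaction of SHP2 loss with BCR-ABL1 limma called none of the 6, with backgrounds of 0% past the filter and 0.0165% without it. None was at an unadjusted p below 0.05, beside 5.79% of genes past the filter and 5.45% without it. Nothing is read from the counts for Cma1 and Cpa3, since these 2 genes were chosen by those values.

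**Figure D2:**
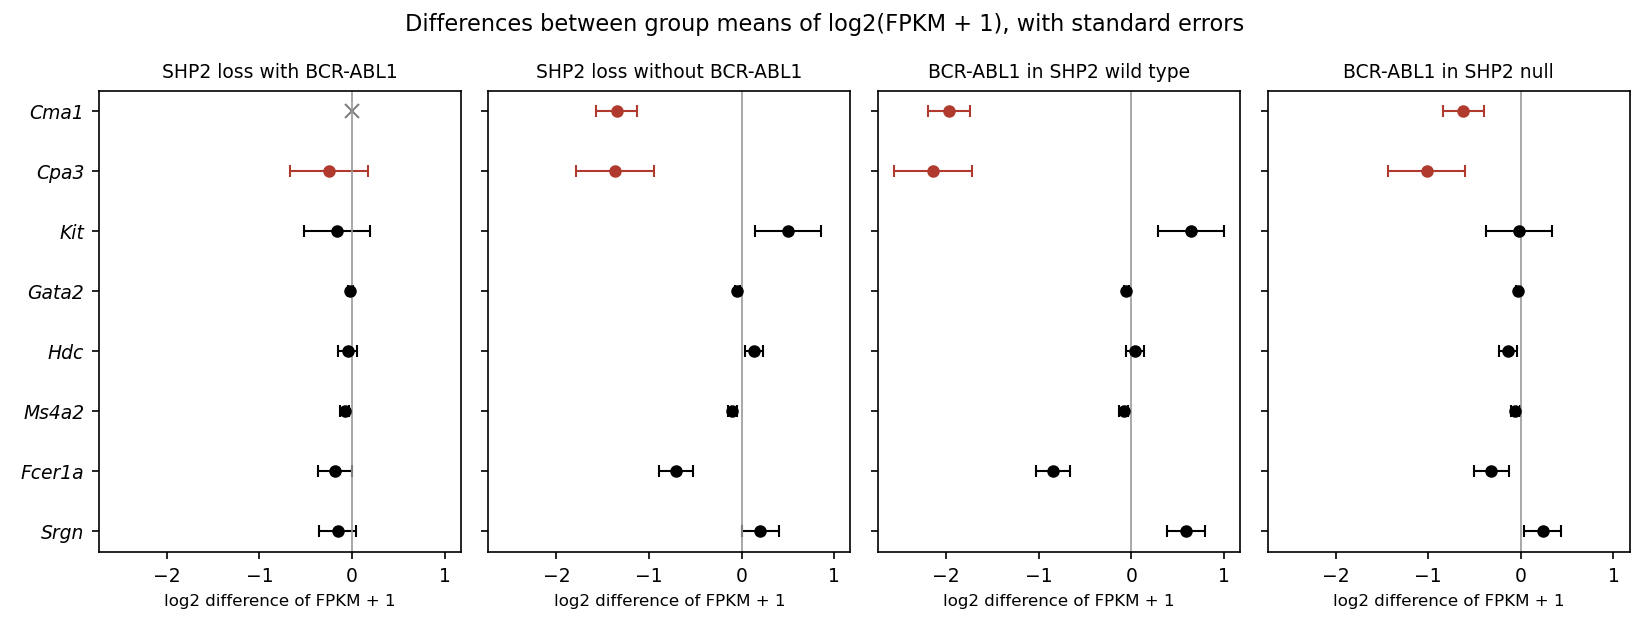
Log2 differences of FPKM + 1 between group means (horizontal axis, with SE bars from the fit on 16 libraries) for the 8 genes in the 4 comparisons; red marks Cma1 and Cpa3, the cross a gene at 0 in both groups. For BCR-ABL1 in wild-type cells, Cma1, Cpa3 and Fcer1a lie at -1.97, -2.14 and -0.84, and Kit and Srgn at 0.64 and 0.59.

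Most other mast cell proteases were also highest in wild-type cells without BCR-ABL1. Of 10 further listed proteases 8 were above 0 in some library, and 5 fell with SHP2 loss in cells without BCR-ABL1: Tpsb2, Mcpt2, Mcpt4, Tpsg1 and Gzmb. The same 5 fell with BCR-ABL1 in wild-type cells, and none of the 8 was called in the other 2 comparisons. Their backgrounds of genes called lower were 0.44% and 1.36%. The 2 comparisons share the wild-type libraries without BCR-ABL1. The median log2 difference of the 8 was -0.20 and -0.22, beside medians over all 18172 genes of 0.00398 and 0.00162. For BCR-ABL1 in wild-type cells Tpsg1 lost its call in 4 of the 8 fits that left out 1 library and had an adjusted p of 0.192 in the fit on those 8 libraries alone. Gzmb and Tpsg1 stand outside the rule for named genes and, like Tpsab1 and Ctsg, were chosen after their values were seen.

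Tpsb2, a mast cell tryptase, had the smallest p of these 8 in both. It measured 0.478, 0.821, 0.765 and 0.992 FPKM in wild-type cells without BCR-ABL1 and 0.0568, 0, 0.0466 and 0 FPKM in null cells without it, and was listed at 0 in all 8 libraries with BCR-ABL1. The null library of replicate 2, which had 4.96 FPKM of Cpa3, thus had almost no Tpsb2. The log2 difference was -0.77 ± 0.06 for SHP2 loss without BCR-ABL1 (adjusted p = 5.24e-05) and -0.81 ± 0.06 for BCR-ABL1 in wild-type cells (adjusted p = 2.21e-05). Both calls held in each alternative fit, the first with an adjusted p of 0.0403 when only the 8 libraries without BCR-ABL1 were fitted. The SHP2 effect on Tpsb2 differed between cells with and without BCR-ABL1 by 0.77 ± 0.09 (interaction, adjusted p = 0.0104), where 0.0165% of genes passed. That interaction compares a fall without BCR-ABL1 with 2 groups at 0.

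The chymase genes Mcpt1, Mcpt2 and Mcpt4 lie beside Cma1 in the protease cluster of chromosome 14. Mcpt4 was at 0.232, 0.336, 0.300 and 0.161 FPKM in wild-type cells without BCR-ABL1, at 0.127, 0, 0.0174 and 0 FPKM in null cells without it and at 0 in all libraries with it (-0.28 ± 0.04, adjusted p = 0.00464, and -0.33 ± 0.04, adjusted p = 0.000541). Mcpt2 was at 0.183 to 0.260 FPKM in the wild-type libraries without BCR-ABL1 and at most 0.0866 FPKM in any other (-0.25 ± 0.03, adjusted p = 0.000222, and -0.29 ± 0.03, adjusted p = 4.76e-05). Mcpt1 was above 0 only in the 4 wild-type libraries without BCR-ABL1, at 0.0214 to 0.133 FPKM, and missed the threshold (adjusted p = 0.197 and 0.126). Cma2 and Mcpt9, also in the cluster, were listed at 0 in all 16 libraries. Khnyn and Sdr39u1, the nearest genes on the other side of Cma1, were expressed in all libraries, at 7.74 to 11.9 and 11.4 to 18.0 FPKM, and their lowest adjusted p over the 4 comparisons was 0.249. Beside Cpa3, the genes Hps3, Hltf, Gyg and Tbl1xr1 were expressed and had adjusted p-values of 0.249 or more. Cpb1, a carboxypeptidase gene next to Cpa3, was at 0 throughout.

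The strength of these protease calls depended on which libraries set the spread. All 16 libraries shared 1 estimate of it, and the 8 with BCR-ABL1 held Tpsb2, Mcpt4 and Mcpt2 at or near 0. In the fit on the 8 libraries without BCR-ABL1 alone, the count called lower with SHP2 loss went from 5 to 1, Tpsb2, with adjusted p-values of 0.0564 for Mcpt2, 0.177 for Mcpt4, 0.292 for Gzmb and 0.269 for Tpsg1. Gzmb, a granzyme shared with cytotoxic lymphocytes, fell from 0.598 to 0.857 FPKM in wild-type cells without BCR-ABL1 to 0.0148 to 0.576 FPKM in null cells (-0.48 ± 0.11, adjusted p = 0.0456). That call was lost in 7 of the 8 fits that left out 1 library, all but the one without the null library of replicate 2, and with median-ratio scaling or a pseudocount of 0.1. Tpsg1 lost its call in 6 of 8 such fits, and its transcript shares a stretch of 158 bases with that of Cacna1h, so reads of the 2 genes may not be separable. For each of the 8 members the longest exact stretch shared with a transcript of another gene was 39 bases or less, below the 100 bases of a read.

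Tpsab1 and Ctsg were not called in any of the 4 comparisons. Tpsab1, the other main tryptase, was above 0 only in the null libraries of replicates 0, 2 and 3 without BCR-ABL1, at 0.132, 0.182 and 0.0660 FPKM (SHP2 loss without BCR-ABL1, 0.13 ± 0.04, adjusted p = 0.122). Without the null library of replicate 1 it passed as higher with SHP2 loss (0.17, adjusted p = 0.00409) and as lower with BCR-ABL1 in null cells (-0.17, adjusted p = 0.00706). In the wild-type libraries without BCR-ABL1, where Tpsb2 was highest, it was listed at 0. Its longest exact stretch shared with another gene was 24 bases, and that of Tpsb2 22 bases. Ctsg, a protease also made by neutrophil precursors, had group means in the same order as Cpa3, at 0.357, 0.274, 0.246 and 0.066 FPKM, and its groups overlapped. In wild-type cells without BCR-ABL1 it was at 0.504, 0.221, 0.365 and 0.338 FPKM and in null cells without it at 0.146, 0, 0.924 and 0.0244 FPKM, so that 3 of the 4 null libraries lay below every wild-type one and replicate 2 lay above them. Its adjusted p-values ran from 0.728 to 1.

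**Figure D3:**
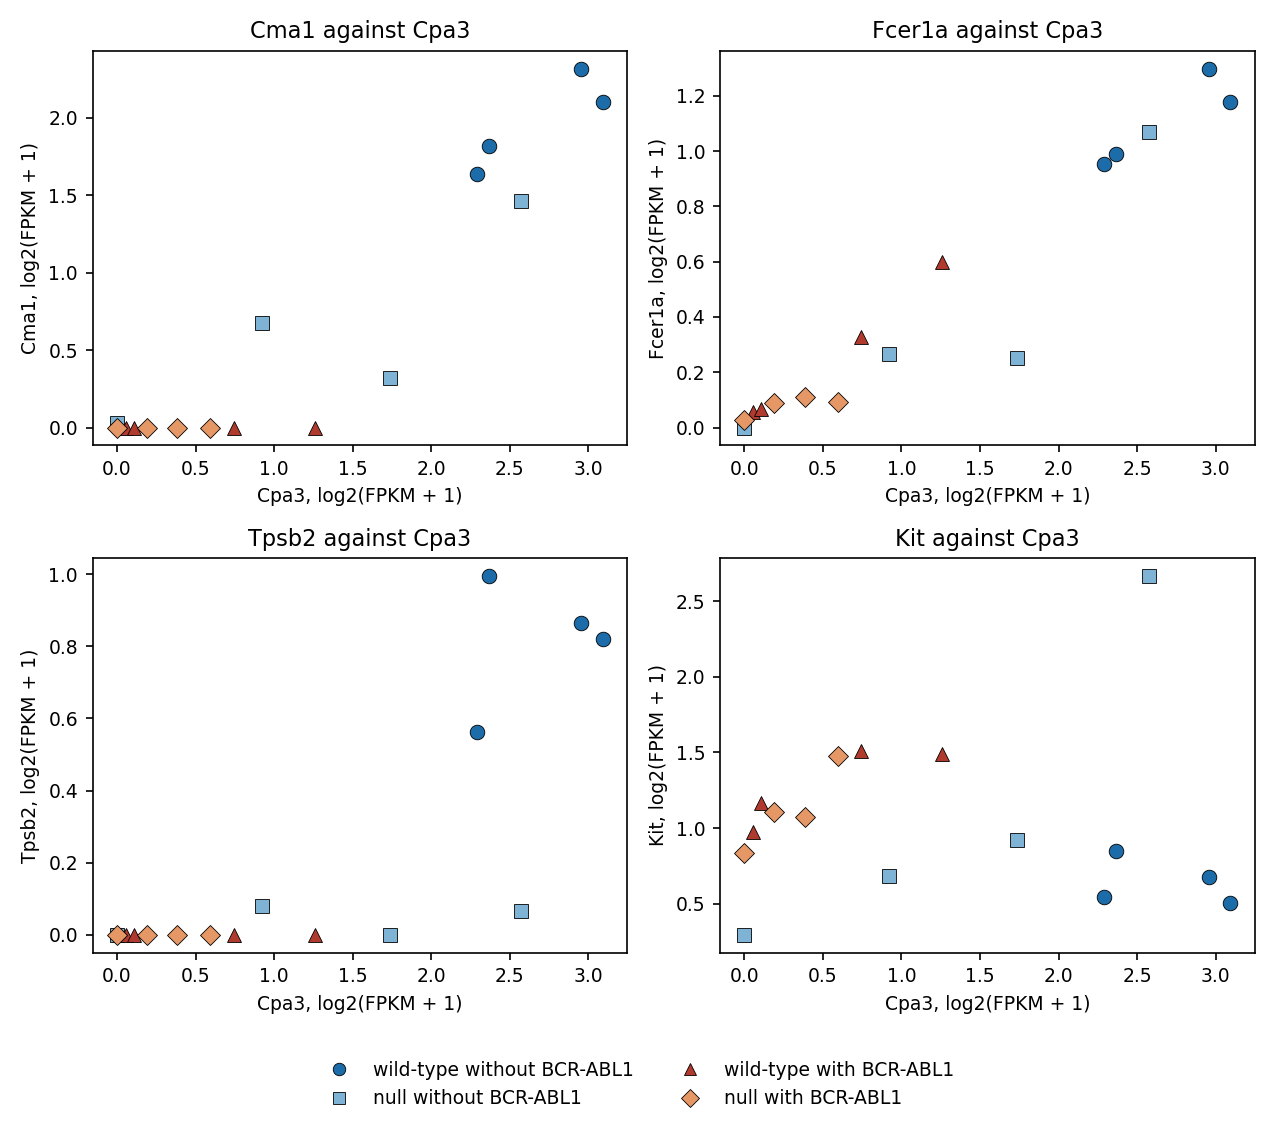
Cma1, Fcer1a, Tpsb2 and Kit (vertical axes) against Cpa3 (horizontal axes), all as log2(FPKM + 1), with 1 symbol per library and 4 groups of 4. Cma1 and Tpsb2 lie at 0 in the libraries with BCR-ABL1 whatever their Cpa3, Fcer1a climbs with Cpa3 in the 16 libraries, and Kit is lowest on average in the wild-type libraries without BCR-ABL1 that have the most Cpa3.

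Other mast cell genes from fixed lists moved in part. Of 11 further surface receptor genes, 10 above 0, limma called 1 with BCR-ABL1 in wild-type cells. That was Il1rl1, the receptor for interleukin-33, which fell from 0.223 to 0.508 FPKM to 0.0415 to 0.107 FPKM (-0.36 ± 0.07, adjusted p = 0.0110; 0.0510 in the fit on those 8 libraries alone). In SHP2 loss without BCR-ABL1, Il1rl1 had an adjusted p of 0.0775, and of 0.0483 with the replicate number as a block. It also passed there with quantile scaling (0.0238) and without the null library of replicate 2 (0.0230) or the wild-type library of replicate 3 (0.0418), and in no other alternative. Of 6 lipid mediator genes, Alox5 and Ptgs1 fell with BCR-ABL1 in wild-type cells (-0.24 ± 0.05, adjusted p = 0.0193, and -0.33 ± 0.07, adjusted p = 0.0258) and Pla2g4a rose (0.41 ± 0.10, adjusted p = 0.0273). Hpgds, the prostaglandin D synthase of mast cells, rose with BCR-ABL1 in null cells from 0.592 to 1.02 FPKM to 1.53 to 1.76 FPKM (0.51 ± 0.08, adjusted p = 0.00651). The calls of Alox5, Ptgs1 and Pla2g4a were lost in 4, 6 and 6 of the 8 fits that left out 1 library, with adjusted p-values up to 0.0658, 0.0774 and 0.104. That of Hpgds had an adjusted p of 0.0577 in the fit on the 8 null libraries alone. With the replicate block Hpgds also passed in SHP2 loss without BCR-ABL1 (-0.28, adjusted p = 0.0335, against 0.125), and Pla2g4a in BCR-ABL1 in null cells (0.42, adjusted p = 0.0144, against 0.0531). Alox5 and Ptgs1 were not called in SHP2 loss without BCR-ABL1. They passed there as lower with quantile scaling (0.0211 and 0.0359). Alox5 also passed without the null library of replicate 2 (0.0252) and Ptgs1 without the wild-type library of replicate 2 (0.0186), and neither did in another alternative. Genes called higher made up 1.76% of 18172 for BCR-ABL1 in wild-type and 0.407% for BCR-ABL1 in null cells.

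None of 12 genes of IgE receptor signalling and none of 10 further transcription factor genes was called by limma in any of the 4 comparisons, with median log2 differences between -0.08 and 0.22. Unadjusted p-values below 0.05 were seen for 1, 3, 5 and 2 of the signalling genes in SHP2 loss with and without BCR-ABL1 and in BCR-ABL1 in wild-type and null cells, and for 0, 2, 2 and 2 of the factors, beside 4.31%, 12.9%, 15.6% and 11.6% of 18172 genes. With the replicate block, the kinase Syk (adjusted p = 0.0245) and the factors Stat5a (0.0169) and Stat5b (0.0407) passed in SHP2 loss without BCR-ABL1, and Zfpm1 (0.0478) in BCR-ABL1 in null cells. For BCR-ABL1 in wild-type cells, where the numbers were not taken as pairs, the block gave Syk 0.0052, Lyn 0.0122, Lcp2 0.0234 and Fyn 0.0483. Mitf, a factor that mast cells require, was at 0.12 to 0.341 FPKM and Gata1 at 0.0202 to 0.0832 FPKM across the 16 libraries. Mitf, Gata1 and Fcer1g were chosen after their values were seen. Fcer1g, the chain that FceRI shares with other Fc receptors, was highest in the null library of replicate 2 without BCR-ABL1 (8.23 FPKM) and was otherwise between 0.635 and 3.04 FPKM. In wild-type cells all 4 libraries with BCR-ABL1 (1.95 to 3.04 FPKM) lay above all 4 without it (0.778 to 1.27 FPKM), opposite in direction to Fcer1a. The log2 difference of 0.79 ± 0.38 was not called (adjusted p = 0.271), but was in the fit on those 8 libraries alone (0.0304). Among 8 further genes of granule matrix and amines, Lamp1 and Vamp8 rose with BCR-ABL1 in wild-type cells (0.34 ± 0.08, adjusted p = 0.0203, and 0.26 ± 0.07, adjusted p = 0.0429), 2 genes of lysosomes and vesicles that most cells use. The Lamp1 call was lost in 3 of the 8 fits that left out 1 library and the Vamp8 call in 7 of them, with adjusted p-values up to 0.0783 and 0.147. In null cells Lamp1 was not called (adjusted p = 0.0930) but passed with the replicate block (0.0122). In the fit without the filter it also passed there with median-ratio scaling (0.0325) and quantile scaling (0.00346). Slc18a2, the vesicular amine transporter, was at 1.65 ± 0.300 FPKM in wild-type cells without BCR-ABL1 and at 1.14 to 1.19 FPKM on average in the other groups, without a call (adjusted p = 0.107 for SHP2 loss without BCR-ABL1). It passed as lower there (-0.37, adjusted p = 0.0433) in the fit without the filter that left out the wild-type library of replicate 1 without BCR-ABL1. The same fit gave -0.34 (adjusted p = 0.0362) for BCR-ABL1 in wild-type cells.

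Within groups, the libraries with more Cpa3 also had more of several members. After group means were removed from log2(FPKM + 1), 13 pairs of genes were correlated over the 16 libraries, with permutations within groups and adjustment over the 13. The permutations did not keep libraries of the same replicate number together. Such libraries shared deviations in most comparisons, so the 16 values are not fully independent and the permutation p-values of all 13 pairs may be too small. Whether a shared replicate effect gave these relations was not tested. Fcer1a and Cpa3 gave a Pearson r of 0.90 (adjusted permutation p = 0.00208) and a Spearman rho of 0.84 (adjusted p = 0.00533), and r was 0.79 without the 2 libraries farthest from the median. For Ms4a2 the values were r = 0.87 (adjusted permutation p = 0.00208), rho = 0.83 (0.00555) and 0.84 without the 2 libraries. Gata2 gave r = 0.78 and rho = 0.82 (adjusted permutation p = 0.00039 for each, the smallest seen over the 13 pairs) and 0.77 without the 2 libraries. Kit reached r = 0.81 (adjusted permutation p = 0.0148) and rho = 0.62 (0.0455) but 0.49 without those 2 libraries (0.131), so its relation rested on them. Hdc likewise went from r = 0.79 (adjusted permutation p = 0.0342; rho = 0.68, 0.0507) to 0.52 (0.194). Srgn had r = 0.64 (adjusted permutation p = 0.0264; rho = 0.63, 0.0316) and 0.67 without the 2 libraries (0.0628).

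Cma1 varied only among the 8 libraries without BCR-ABL1, so its relations rest on those. Its r with Cpa3 was 0.73 (adjusted permutation p = 0.0814; rho = 0.43, 0.335) and 0.21 without the 2 farthest libraries. With Fcer1a, r was 0.85 and rho 0.68 (adjusted permutation p = 0.00591 for each), and 0.53 without those 2 libraries (0.0628). Gata2 gave r = 0.74 (adjusted permutation p = 0.0331; rho = 0.77, 0.0465), then 0.72 (0.278). Ms4a2, Kit, Hdc and Srgn had r of 0.64, 0.78, 0.71 and 0.25 with adjusted permutation p-values of 0.058, 0.0814, 0.151 and 0.465, and rho of 0.49, 0.28, 0.20 and 0.09 with adjusted p-values of 0.165, 0.555, 0.565 and 0.712. Without the 2 libraries these 4 values of r were 0.27, 0.05, -0.01 and -0.07.

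Across the 16 libraries with the group differences left in, Cpa3 was the gene most like Cma1 among 10209 others past the filter (Pearson r = 0.92 on log2(FPKM + 1)). That place is a description, since the groups differ and both genes were chosen for their values in these libraries. Next came Galnt3, an O-glycosylation enzyme, at 0.92, Spred2, an inhibitor of RAS-ERK signalling, at 0.91, Adcy6, an adenylyl cyclase, at 0.91 and Chd7, a chromatin remodeller, at 0.90. The genes most like Cpa3 after Cma1 were Leprotl1 at 0.92, Epcam, an adhesion molecule, at 0.92, Galnt3 at 0.90 and the cytokine receptor kinase Jak1 at 0.90. All 7 of these other genes were above 0 in cells with BCR-ABL1, where Cma1 was not: Epcam averaged 9.02 and 6.09 FPKM without BCR-ABL1, in wild-type cells and then null cells, against 2.90 and 2.09 FPKM with it. On the same measure Fcer1a had r = 0.94 with Cma1 and 0.96 with Cpa3. Kit had -0.15 and 0.04, places 5882 and 4555 of 10209, and Srgn had -0.49 and -0.24.

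Markers of other myeloid cells moved with some of these libraries. Mcpt8 and Prss34, proteases of basophils, a cell type that also uses Fcer1a, Ms4a2, Gata2 and Hdc, had their highest values in wild-type cells with BCR-ABL1, where Cma1 was at 0. Prss34 was at 0 in the wild-type libraries without BCR-ABL1 and at 0.344, 0.249, 2.92 and 5.73 FPKM in those with it (1.37 ± 0.42, adjusted p = 0.110). Mcpt8 went from 0.0855 to 0.226 FPKM to 0.36, 0.298, 1.47 and 3.66 FPKM (0.91 ± 0.36, adjusted p = 0.165). In null cells with BCR-ABL1, where Cma1 was also at 0, Mcpt8 was at 0.294, 0.0476, 0.443 and 1.16 FPKM and Prss34 at 0.464, 0, 0.372 and 0.891 FPKM. The null library of replicate 2 without BCR-ABL1 had 1.25 FPKM of Mcpt8 beside 1.75 FPKM of Cma1. For BCR-ABL1 in wild-type cells 3 of the 4 basophil markers that are not members had an unadjusted p below 0.05, as did 15.6% of 18172 genes, and none was called. Prss34 passed with a pseudocount of 0.1 (adjusted p = 0.0345) and without the wild-type library of replicate 1 with BCR-ABL1 (0.0419). Both Mcpt8 and Prss34 had groups that did not overlap, where 5.79% of genes were higher without overlap. Relative to Cpa3 in the same library, Mcpt8 was 0.0163 to 0.0300 in wild-type cells without BCR-ABL1 and 2.19 to 8.99 in wild-type cells with it. The neutrophil genes S100a8 and S100a9 were also highest in the wild-type library of replicate 3 with BCR-ABL1 (9.34 and 7.05 FPKM). Within wild-type cells with BCR-ABL1, replicates 3 and 2 were in that order the highest for Cpa3, Fcer1a, Ms4a2, Gata2, Mcpt8, Prss34 and S100a8. The summed level of the 4 basophil markers that are not members was 0.101 to 0.445, 0 to 1.84, 0.611 to 9.62 and 0.0476 to 2.16 FPKM in wild-type and null cells without and then with BCR-ABL1. Their part in the levels of Cpa3 and Fcer1a was not tested.

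The null library of replicate 2 without BCR-ABL1 stood apart in the same manner for macrophage genes. Lyz2, a lysozyme of macrophages and granulocytes, was at 403 FPKM there and at 34.3 FPKM or less in every other library. The sum of 10 macrophage and monocyte markers was 504 FPKM in it and between 34.2 and 75.2 FPKM in the others, and that sum includes Lyz2. Cd68, a lysosomal protein of macrophages, was at 12.4 FPKM in it and at most 2.36 FPKM elsewhere. Csf1r, the receptor for macrophage colony-stimulating factor, was at 3.57 against at most 0.543 FPKM, and Mrc1, a mannose receptor, at 2.48 against at most 0.498 FPKM. C1qa, a macrophage complement gene, was at most 0.0251 FPKM in any library and at 0 in this one. Other listed macrophage genes were highest in the null group without BCR-ABL1. There C1qb reached 0.496, C1qc 0.194, Emr1 2.57 and Cd14 0.184 FPKM. In the other groups they were at most 0.0557, 0.0678, 0.263 and 0.0679 FPKM. C1qb, C1qc, Emr1 and Cd14 were chosen after their values were seen. Lyz2 fell short of a call for BCR-ABL1 in null cells (-3.05 ± 0.91, adjusted p = 0.141) and passed with the replicate block (0.0122). That library held the highest Kit, Hdc, Ctsg and Tpsab1 of all 16, and the highest Cma1, Cpa3, Fcer1a, Ms4a2 and Gata2 of the null libraries. Its 12 mast cell proteases summed to 8.45 FPKM. The remaining null libraries without BCR-ABL1 had 0.0352 to 2.78 FPKM, and the wild-type ones 8.12 to 13.7 FPKM. The sum of 8 stromal markers was at most 0.263 FPKM and that of 7 T and NK cell markers at most 1.11 FPKM in any library. What part macrophage markers had in these levels was not tested. Limma called none of the macrophage, neutrophil, basophil, stromal or erythroid markers in the 4 comparisons, with 0 to 4 genes of a list at an unadjusted p below 0.05. S100a9 passed for BCR-ABL1 in wild-type cells with a pseudocount of 0.1 (0.0491). With the replicate block S100a9 (0.0118) and S100a8 (0.0265) passed there, where the numbers were not taken as pairs. Of the remaining lists it called the pre-B gene Il7r higher in 3 comparisons (SHP2 loss without BCR-ABL1 and both for BCR-ABL1), the T cell gene Cd3g higher in both for BCR-ABL1, and the progenitor gene Sox4 higher for BCR-ABL1 in wild-type cells. The Cd3g call in null cells was lost in 7 of the 8 fits that left out 1 library (adjusted p up to 0.13) and in the fit on the 8 null libraries alone (0.204), and Il7r for SHP2 loss missed the threshold in the fit on its 8 libraries (0.0505). With the replicate block Blnk (adjusted p = 0.0330 for SHP2 loss without BCR-ABL1) and Ly6a (0.0125 for BCR-ABL1 in null cells) also passed. Without this library the log2 difference of SHP2 loss without BCR-ABL1 was -1.63 for Cma1 and -1.79 for Cpa3.

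**Figure D4:**
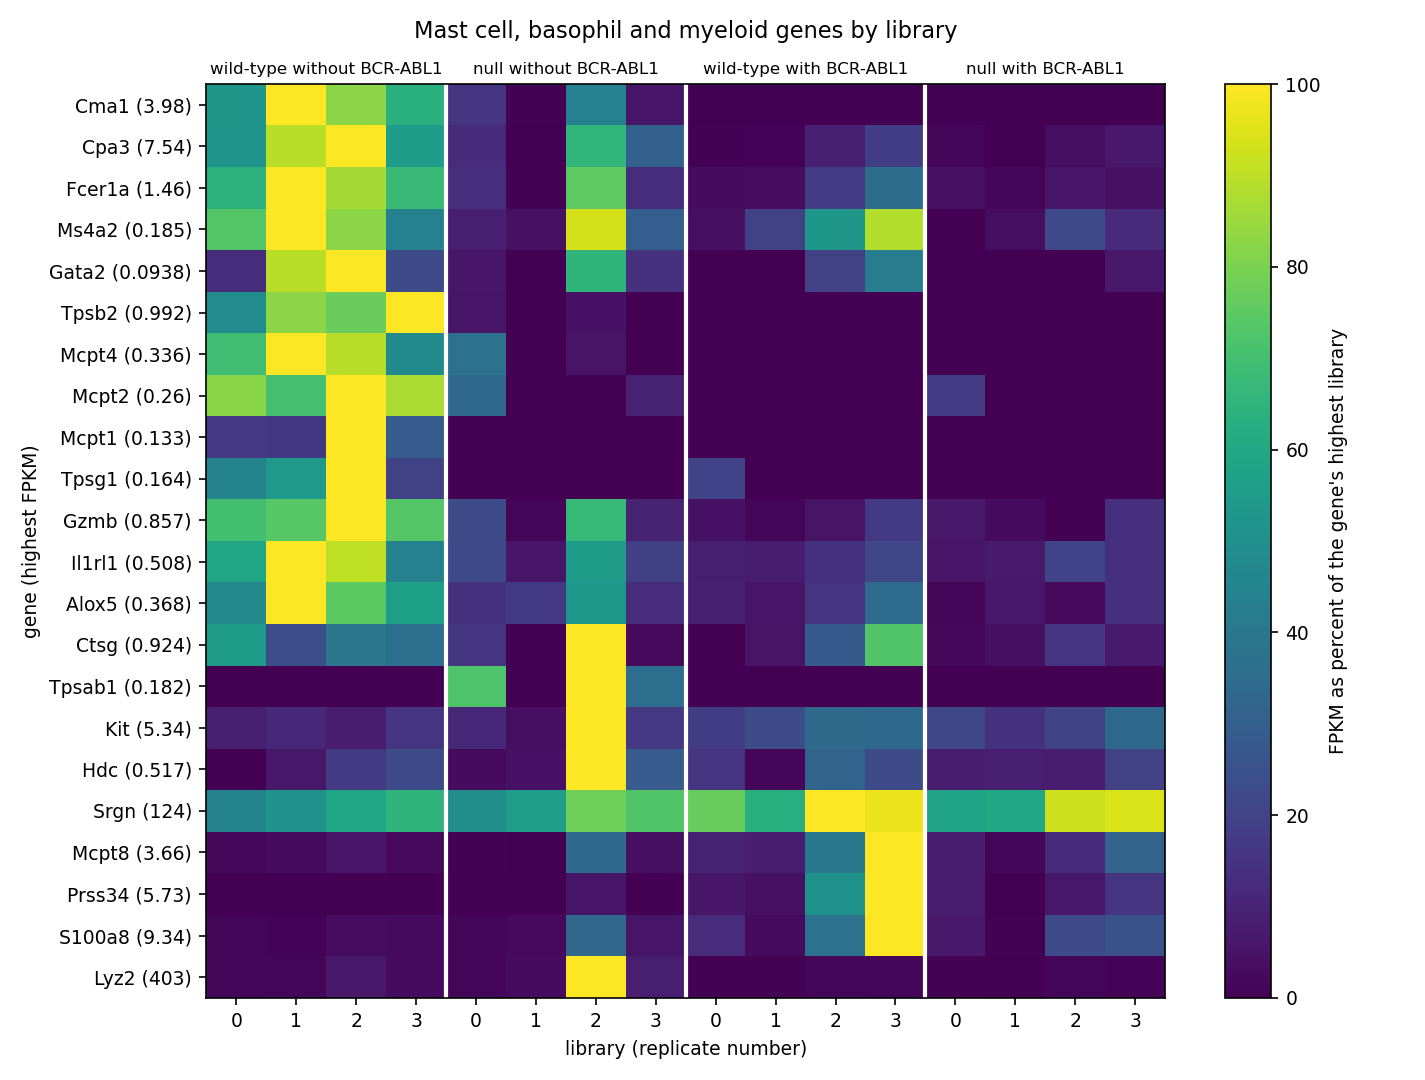
FPKM of mast cell, basophil and myeloid genes (rows) in each of the 16 libraries (columns, 4 per group), shown as percent of the highest library of the gene, whose FPKM stands in brackets. The upper rows, from Cma1 to Alox5, peak in 1 of the 4 wild-type libraries without BCR-ABL1, though Gata2, Mcpt1 and Tpsg1 are dark in some of these. Tpsab1, Kit, Hdc and Lyz2 peak in the null library of replicate 2 without BCR-ABL1. Mcpt8, Prss34 and S100a8 peak in the wild-type library of replicate 3 with BCR-ABL1.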

How the data were processed

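PolyA RNA (150 ng a sample) was made into stranded libraries and read from both ends for 100 cycles, per the labels' protocols. The authors deposited FPKM per gene symbol. Per the submitters' processing notes, Bowtie and Cufflinks were used with the build mm10 (GRCm38). The sources used here do not give versions, annotation, strand handling or the treatment of reads with several alignments. Values of 254 symbols listed more than once were summed, none of them a member, and the 16 single-library tables equalled the series table.

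The filter kept the 10210 genes that reached 1 FPKM in 4 or more of the 16 libraries, which 4 of the 8 members passed, Cma1, Cpa3, Kit and Srgn. Fcer1a, Gata2, Hdc and Ms4a2 were tested in a fit without the filter (18172 genes above 0 in any library), as were listed genes below it. Both fits used log2(FPKM + 1), 4 group means over all 16 libraries and a trended prior variance in limma 3.58.1 under R 4.3.3, with two-sided tests and Benjamini-Hochberg adjustment over all genes tested. An adjusted p below 0.05 was a call. The scripts were tested on simulated data. The members and the 14 lists (130 genes, 129 found, 3 of them by a synonym) were chosen with earlier results of these data known. Named were the 8 members, from each list up to 4 genes with the smallest p and its first 3 where near 0, the 5 genes most like Cma1 and Cpa3, and 5 neighbours on each side. Relations used 100000 permutations within groups. Positions are from GENCODE on GRCm38. Tables were handled in Python 3.11.15 with pandas 2.3.3 and numpy 2.4.6, permutations with scipy 1.17.1 and figures with matplotlib 3.10.9.

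Per the labels' protocols each loading set held a library of every group, but whether the replicate number marks the set is not said. Deviations from group means correlated between libraries of the same number at 0.218 to 0.783 for SHP2 loss with BCR-ABL1, 0.189 to 0.51 for SHP2 loss without it and 0.242 to 0.68 for BCR-ABL1 in null cells, so the numbers were taken to pair libraries there. For BCR-ABL1 in wild-type cells replicates 0 to 2 gave 0.643, 0.488 and 0.338 but replicate 3 gave 0.0549, so there they were not. The main fits left the replicate number out in every comparison, and the block was run only as an alternative. Genes said to be not called or to miss the threshold in the paired comparisons thus rest on a fit without the pairing. The alternatives were a pseudocount of 0.1, no filter, median-ratio and quantile scaling, a fit on the groups compared only, the replicate block and leaving out each library.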

Additional observations from a re-analysis of the deposited data

Results flagged for a closer look

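Single libraries far from the other 3 of their group were looked for in 30 sets of 4 values of the members; chance marks about 1 in 20 groups. Kit in the null library of replicate 2 without BCR-ABL1 was 5.34 FPKM, against 0.226 to 0.891 FPKM in the other 3. Hdc in the null library of replicate 3 with BCR-ABL1 was 0.102 FPKM, against 0.0409 to 0.0436 FPKM. Gata2 in that same library was 0.00613 FPKM, with the other 3 at 0. A set with 3 values at 0 is marked whatever the size of the remaining value. The rate of 1 in 20 does not apply to it, and nothing is read from that mark.

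The effect of SHP2 loss differed between cells with and without BCR-ABL1 for 2 mast cell proteases. For Tpsb2 the difference between the effects was 0.77 on the log2 scale (0.774, adjusted p = 0.0104), and it held in each of the 16 fits that left out 1 library. For Mcpt2 it was 0.265 (adjusted p = 0.0356), and it was lost in 12 of those 16 fits, with adjusted p-values up to 0.12. Both genes were at or near 0 in all libraries with BCR-ABL1. The third of the 3 genes called without the filter was Mvb12b.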

How the results depend on the processing

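Depth is unknown, so a value of 0 and a value of a few hundredths of an FPKM may not be separable; this touches Gata2, Hdc, Ms4a2 and the low proteases. Values for the members, and for listed genes in comparisons where the main fit called them, were recomputed under each alternative. Of these, 843 kept their direction and their side of the threshold, 97 lost a call, 3 gained one and 6 changed sign. Another 8 values, of Cma1 and Cpa3, which have no test, moved by more than the spread between replicates. Listed genes that the main fit did not call were left out of this tally, and several of them passed in some alternatives. The 8 values of Cma1 and Cpa3 that moved were all with a pseudocount of 0.1. It gave -2.64 and -2.38 for SHP2 loss without BCR-ABL1 and -4.90 and -3.73 for BCR-ABL1 in wild-type cells. For BCR-ABL1 in null cells it gave -2.27 and -1.92, and for the interaction 2.64 and 1.81.

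Kit in SHP2 loss without BCR-ABL1 was -0.011 without the null library of replicate 2 and between -0.011 and 0.78 with single libraries left out. In BCR-ABL1 in null cells Kit was 0.25 with a pseudocount of 0.1, 0.49 without the null library of replicate 2 without BCR-ABL1 and 0.078 without that of replicate 1 with BCR-ABL1, over a range of -0.30 to 0.49 with single libraries left out. The interaction for Ms4a2 was -0.0025 and -0.0088 without the null library of replicate 1 without BCR-ABL1 and the wild-type library of replicate 0 with it, over a range of -0.0088 to 0.070.

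Among all genes, SHP2 loss without BCR-ABL1 gave 157 calls, 34 in a fit on the groups compared only, and 80 to 164 with single libraries left out. BCR-ABL1 in null cells gave 129, 30 in a fit on the groups only, and 49 to 176. SHP2 loss with BCR-ABL1 gave 32 and 20 to 30, BCR-ABL1 in wild-type cells 477 and 235 to 477, and the interaction 0, with 591 genes at an unadjusted p below 0.05, 0 to 1 with libraries left out and 3 without the filter. Ptpn11 in null cells was 31.3% to 40.3% of wild type without BCR-ABL1 and 23.5% to 28.4% with it. With the replicate block the counts of calls were 587 for SHP2 loss without BCR-ABL1, 538 for BCR-ABL1 in null cells and 1231 for BCR-ABL1 in wild-type cells, where the numbers were not taken to pair the libraries. There the block gave Srgn an adjusted p of 0.000722, Syk 0.0052, Lyn 0.0122, Lcp2 0.0234, S100a8 0.0265 and S100a9 0.0118. It also moved Ly6a (0.0052), Blnk (0.0117), Cd79b (0.0128), Tph1 (0.0211), Csf2rb2 (0.0402) and Fyn (0.0483) past the threshold. The block changed no call of another tested member in any comparison. Listed genes it moved past the threshold in paired comparisons are given beside their results where reported.

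Some listed genes passed with 1 library left out and not in the full fit for BCR-ABL1 in wild-type cells: Fyn (adjusted p = 0.0406) without replicate 1 and Lcp2 (0.0329) without replicate 3 of the libraries with BCR-ABL1, and Csf2rb2 (0.0484) without replicate 0 and Mcpt1 (0.00144, and 0.00304 for SHP2 loss without BCR-ABL1) without replicate 2 of those without it.

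Among the relations, Gata2 with Cma1 gave r = 0.61 with a pseudocount of 0.1 (adjusted permutation p = 0.0526) and 0.72 without the 2 farthest libraries, and Hdc with Cpa3 gave 0.69 (0.0679) and 0.52. Without the 2 farthest libraries Fcer1a with Cma1 was 0.53, Kit with Cpa3 0.49, Srgn with Cpa3 0.67, Hdc with Cma1 -0.0082 and Srgn with Cma1 -0.075. The cause was not tested, beyond the fewer libraries in the fits that leave some out.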
